A study of Mus musculus with 8 samples.

Results

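Leukocyte immunoreceptor signalling and the leukocyte cytoskeleton were followed through 38 genes, chosen by symbol, of the 54232 rows of the expression table. All 38 were found in it. The libraries came from mouse cells of C57BL/6 background labelled FGSC, female germline stem cells, a name for dividing germ cells cultured from the ovary. They were exposed for 3 h to C28 (028 in the sample names, a compound known only by its code) in 3 RNA libraries, or to the solvent DMSO in 3 control libraries. No genetic change is labelled in either group, and the labels do not say whether the 3 replicates were separate cultures, so p-values rest on a spread between libraries that may be technical. The reads recovered from the table numbered 16930212 to 17428321 per C28 library and 18613916 to 19197376 per DMSO library. The H3K27ac libraries of the series (1 for C28, 1 for control) were not used here, because their peaks and the available gene coordinates are on different genome builds.

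Immunoreceptors of blood cells, such as the antigen receptors of lymphocytes and the IgE receptor of mast cells, carry no enzyme of their own. Src family kinases phosphorylate their tails, a kinase of the Syk family binds there and phosphorylates membrane scaffolds such as LAT, and the scaffold gathers adaptors, phospholipase C gamma and Vav exchange factors. Phospholipase C gamma gives calcium entry and diacylglycerol, which acts on protein kinase C and RasGRP proteins, while Vav and DOCK proteins load Rac GTPases that remodel actin. Most of the 38 genes are used mainly by blood cells, and a few (Fyn, Grb2, Plcg1, Prkcd, Gab2, Vav3) are used widely.

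The labelled cell type was first set against its markers. Of 16 germline genes, 2 averaged at least 10 normalized counts over the 6 libraries and 6 had no read, and the germ cell genes Ddx4 and Dazl had 4 reads and 1 read in all libraries together. Of 15 mast cell genes, 9 averaged at least 10, among them Kit, Gata2 and the protease gene Cpa3, while Fcer1a, the alpha chain of the IgE receptor, had no read and Ms4a2, its beta chain, had 3. Defining genes of B cells (Cd79b, Ms4a1) and T cells (Cd3g, Cd8a, Trbc1) were at 0. Of 12 fibroblast genes 8 averaged at least 10, of 16 macrophage genes 5, of 12 ovarian somatic genes 4 and of 9 megakaryocyte genes 3. Of 15 genes of T cells and NK cells 3 did. The lists for neutrophils (11 genes), erythroid cells (11), B cells (10) and endothelium (8) had 1 each, and that for oocytes (9) had 0. In bulk RNA, fewer cells of a type and less RNA per cell cannot be told apart.

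The members were abundant in all 6 libraries. A normalized count is the number of reads on a gene divided by a size factor of its library, and is not divided by transcript length, so ranks between genes also reflect length. By mean over the libraries 13 of the 38 ranked among the first 1000 rows, the median rank was 2056.5, and 27 averaged at least 1000 normalized counts, as did 7.92% of all rows, and 36 averaged at least 10 (24.4% of all rows). A further 7 averaged 100 to 1000, Cd84 and Prkcb averaged 45.3 and 25.6, and Fgr and Rasgrp1 lay below 10. The shares of all rows are low because 28355 of the 54232 rows had no read in any library. Of the 19087 genes later tested, 4295 averaged at least 1000 and 13239 at least 10. The members were also chosen with earlier results of these data known. The 38 together took 0.685% to 0.731% of the normalized counts of a C28 library and 0.699% to 0.728% of those of a DMSO library.

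**Figure D1:**
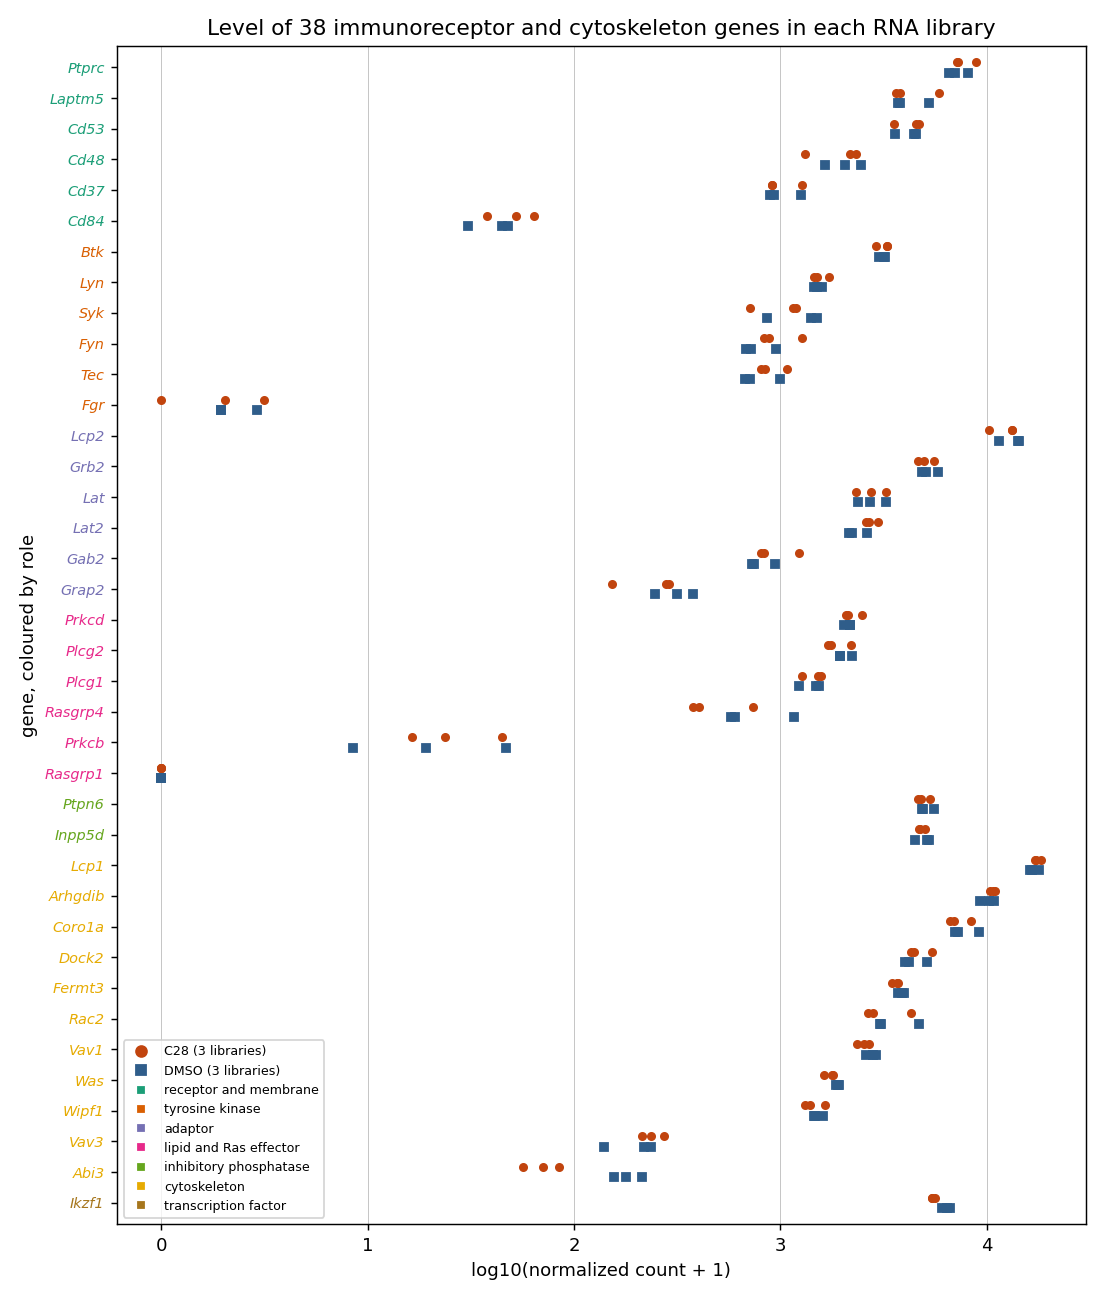
Level of each of the 38 genes in each RNA library as log10(normalized count + 1), with C28 libraries as circles above DMSO libraries as squares, and genes grouped by role. Lcp1 lies farthest right at 16166 to 18469 normalized counts, Rasgrp1 lies at 0, and Abi3 is the gene whose C28 points stand farthest to the left of its DMSO points.

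Promoter windows are shown for 5 of the 6 members with the highest mean, and for Syk, the receptor-proximal kinase. For the 5 the window with the most motif matches was printed (of equal ones in Ptprc and Arhgdib, 1 of 2), so these are not typical windows. The Syk window is shown as one without a match. RefSeq on GRCm38.p6 gave 45 windows for 32 of the 38 genes, each running from 250 bases before to 50 bases after an annotated start. No window was listed for Abi3, Gab2, Lat2, Lyn, Rac2 and Rasgrp4. The letters searched on both strands were AGGAAG, bound by ETS factors such as PU.1, TGTGGT of RUNX factors, AGATAA of GATA factors, TGANTCA of AP-1, TGACNNNGC of the antioxidant response element and GAANNTTC of heat shock factors. Capitals mark every match on either strand, and no matches of different motifs overlapped in these windows.
Lcp2, chr11:34046678-34046977, plus strand: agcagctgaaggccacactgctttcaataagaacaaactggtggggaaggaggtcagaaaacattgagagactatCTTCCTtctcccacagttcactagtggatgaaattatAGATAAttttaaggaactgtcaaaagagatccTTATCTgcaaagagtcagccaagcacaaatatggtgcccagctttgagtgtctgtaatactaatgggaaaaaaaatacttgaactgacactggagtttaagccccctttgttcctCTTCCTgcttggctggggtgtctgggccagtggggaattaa
Ptprc, chr1:138175256-138175555, minus strand: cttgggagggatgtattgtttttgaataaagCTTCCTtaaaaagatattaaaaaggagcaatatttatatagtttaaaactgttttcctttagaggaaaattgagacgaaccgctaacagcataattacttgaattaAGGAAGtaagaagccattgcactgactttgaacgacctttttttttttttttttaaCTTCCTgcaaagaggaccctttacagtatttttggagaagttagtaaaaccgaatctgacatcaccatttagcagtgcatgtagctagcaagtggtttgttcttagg
Arhgdib, chr6:136941454-136941753, minus strand: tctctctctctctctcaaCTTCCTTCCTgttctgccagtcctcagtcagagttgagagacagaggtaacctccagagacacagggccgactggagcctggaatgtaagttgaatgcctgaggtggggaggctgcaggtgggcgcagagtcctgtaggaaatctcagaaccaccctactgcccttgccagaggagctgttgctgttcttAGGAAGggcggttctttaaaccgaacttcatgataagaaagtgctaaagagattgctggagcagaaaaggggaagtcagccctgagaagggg
Coro1a, chr7:126704171-126704470, minus strand: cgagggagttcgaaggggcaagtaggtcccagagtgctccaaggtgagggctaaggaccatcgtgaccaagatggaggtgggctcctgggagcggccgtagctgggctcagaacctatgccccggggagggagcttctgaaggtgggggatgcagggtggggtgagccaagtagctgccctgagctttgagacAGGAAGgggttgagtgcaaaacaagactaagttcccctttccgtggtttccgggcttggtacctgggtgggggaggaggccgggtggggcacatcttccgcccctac
Ikzf1, chr11:11689927-11690226, plus strand: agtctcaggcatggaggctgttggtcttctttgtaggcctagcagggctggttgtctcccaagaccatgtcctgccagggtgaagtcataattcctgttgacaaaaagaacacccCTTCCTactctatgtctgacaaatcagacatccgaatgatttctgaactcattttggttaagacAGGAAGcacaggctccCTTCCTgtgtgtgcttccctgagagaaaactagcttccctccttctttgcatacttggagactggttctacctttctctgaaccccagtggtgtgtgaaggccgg
Syk, chr13:52583187-52583486, plus strand: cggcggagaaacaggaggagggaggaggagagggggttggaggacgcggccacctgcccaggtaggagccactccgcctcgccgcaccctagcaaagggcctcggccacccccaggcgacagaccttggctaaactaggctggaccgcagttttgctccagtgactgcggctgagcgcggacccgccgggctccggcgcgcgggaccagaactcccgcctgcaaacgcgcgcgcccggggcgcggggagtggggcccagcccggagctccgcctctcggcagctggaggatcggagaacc

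AGGAAG was found in 26 of the 45 member windows (57.8%) and in 35.4% of all 32851 windows of the table. TGTGGT stood in 17.8% of member windows and 16.8% of all, AGATAA in 8.89% and 11.2%, TGANTCA in 4.44% and 7.81%, TGACNNNGC in 8.89% and 12.4%, and GAANNTTC in 4.44% and 7.86%. The Ptprc window shown held AGGAAG 3 times, as did those of Arhgdib and Ikzf1. For Ptprc and Arhgdib this repeat depended on which of the equal windows was printed. The equal Arhgdib window held 3 matches, none of them to the ETS motif, and the equal Ptprc window held 3, of which 1 was to it. The Syk window shown held none of the 6 motifs. Other windows without a match, not printed, are named only for the 6 members with the highest mean, Syk and Fyn. They were both windows of Lcp1, the member with the highest mean, and the second window of Syk. The Fyn window and 1 window each of Arhgdib, Coro1a and Ikzf1 also had none. Windows of 1 gene can overlap, so they are not separate observations, and a match is a run of letters, not a bound site. Spi1, which encodes PU.1, was at 1368, 1186 and 1104 normalized counts in C28 libraries and at 1158, 1217 and 1097 in DMSO libraries.

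Among the receptors and membrane proteins, Ptprc encodes the phosphatase CD45, which sets the activity of Src family kinases. Ptprc was at 8917, 7229 and 7248 normalized counts in C28 replicates 1 to 3 and at 8157, 6568 and 7041 in DMSO replicates 1 to 3. The groups overlapped, and replicate 1 was the highest library of each. Laptm5, a lysosomal membrane protein that limits receptor levels, averaged 4438 ± 1244 in C28 libraries and 4251 ± 866 in DMSO libraries (SD, n = 3 each, as in all such values). The tetraspanin genes Cd53 and Cd37 averaged 4271 ± 620 and 1036 ± 209 in C28 libraries and 4209.6 ± 514 and 1027 ± 203 in DMSO libraries. Of the SLAM family receptors, Cd48 averaged 1933 ± 542 in C28 libraries and 2051 ± 403 in DMSO libraries, and Cd84 50.6 ± 13.2 with C28 and 40.1 ± 9.13 with DMSO.

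The tyrosine kinases covered the Src, Syk and Tec families. Of the Src family, Lyn averaged 1558 ± 148 normalized counts in C28 libraries and 1522 ± 70.5 in DMSO libraries. Fgr had 7 reads in all, with 1.04, 2.15 and 0 normalized counts in C28 libraries and 0.935, 0.952 and 1.91 in DMSO libraries, which leaves its level near that of single reads. Btk and Tec, kinases that phosphorylate phospholipase C gamma, averaged 3165 ± 211 and 905 ± 146 in C28 libraries and 3137 ± 119 and 793 ± 175 in DMSO libraries. Zap70, the Syk relative of T cells, had 14 reads over the 6 libraries. Of further Src family kinases, Blk had 0 reads and Lck 141.

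Of the scaffolds and adaptors, Lcp2 encodes SLP-76, the adaptor that joins LAT complexes to Vav and phospholipase C gamma. Lcp2 was at 10249, 13217 and 13291 normalized counts in C28 replicates 1 to 3 and at 11477, 14267 and 14367 in DMSO replicates 1 to 3. Here replicate 1 was the lowest library of each group, whereas for Ptprc it was the highest. Lat, the scaffold itself, averaged 2785 ± 478 in C28 libraries and 2788 ± 448 in DMSO libraries, a log2 difference of 0.00 with a 95% interval from -0.11 to 0.10 when the replicate number was a block. Without the block that interval ran from -0.36 to 0.35. Grb2, which recruits the Ras exchange factor SOS, averaged 5052 ± 453 in C28 libraries and 5239.9 ± 498 in DMSO libraries. Gab2, a docking protein for lipid kinases, averaged 959 ± 242 with C28 and 805 ± 120 with DMSO, and Grap2 (GADS), the partner of SLP-76, 239.6 ± 75.5 with C28 and 311 ± 65.0 with DMSO. Clnk, an SLP-76 relative outside the 38, averaged 2722 ± 96.5 in C28 libraries and 3038 ± 227 in DMSO libraries, and Blnk, the B cell relative, 1.75 ± 0.616 with C28 and 1.90 ± 1.65 with DMSO.

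Among the lipid and Ras effectors, Plcg2 averaged 1891 ± 264 normalized counts in C28 libraries and 2039 ± 165 in DMSO libraries, and Plcg1 1453 ± 156 with C28 and 1419 ± 169 with DMSO. Prkcd, a diacylglycerol-dependent protein kinase C, averaged 2232 ± 219 with C28 and 2137 ± 78.5 with DMSO, and Prkcb 27.4 ± 14.8 with C28 and 23.8 ± 19.7 with DMSO. Rasgrp1, the Ras exchange factor best known in T cells, had 0 of 108208382 reads, and a count of 0 allows up to 3 (counting error only). Rasgrp3 also had 0 reads, and Rasgrp2 averaged 130 ± 16.5 in C28 libraries and 114 ± 25.0 in DMSO libraries. The inhibitory phosphatases Ptpn6 (SHP-1), which removes phosphate from tyrosine, and Inpp5d (SHIP1), which removes it from a lipid, averaged 4926 ± 350 and 4838 ± 185 in C28 libraries and 5105 ± 373 and 4974 ± 416 in DMSO libraries.

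Of the cytoskeleton genes, Lcp1 encodes L-plastin, which bundles actin in leukocytes. Lcp1 was at 18469, 17341 and 17256 normalized counts in C28 replicates 1 to 3 and at 17997, 16166 and 16558 in DMSO replicates 1 to 3. Arhgdib, a regulator of small GTPases in blood cells, was at 10440.1, 10946 and 10717 in C28 libraries and at 9309, 10872 and 10223 in DMSO libraries. Coro1a, an actin-binding coronin, was at 8448, 6658 and 6941 in C28 libraries and at 9159.9, 7278 and 7018 in DMSO libraries. In each of these genes the groups overlapped. Dock2, the Rac exchange factor of haematopoietic cells, averaged 4736 ± 637 in C28 libraries and 4449.8 ± 592 in DMSO libraries, and Rac2, a GTPase it loads, 3258 ± 903 with C28 and 3604 ± 941 with DMSO. Fermt3 (kindlin-3), which activates integrins, averaged 3625 ± 129 with C28 and 3872 ± 124 with DMSO. The exchange factors Vav1 and Vav3 averaged 2533 ± 177 and 241 ± 29.7 in C28 libraries and 2777 ± 145 and 197 ± 51.6 in DMSO libraries. Was, the actin nucleation promoter mutated in Wiskott-Aldrich syndrome, averaged 1739 ± 95.7 with C28 and 1894 ± 26.0 with DMSO, and Wipf1, the protein that stabilizes it, 1451 ± 173 with C28 and 1508 ± 83.4 with DMSO.

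The next question was which members differed between C28 and DMSO. Without a block for the replicate number, none of the 37 members with enough reads to test passed an adjusted p of 0.05 in limma on log2(normalized count + 1), with 3 at an unadjusted p under 0.05 (7.83% of all genes). Across all 19087 genes tested this fit called 26 (0.136%), of which 23 rose (0.121%) and 3 fell (0.0157%). On the recovered reads edgeR's quasi-likelihood test called 0 members, with 3 at an unadjusted p under 0.05 (28 genes, 0.147%), and DESeq2 called 1, Abi3 (182 genes, 1.38%). The authors' deposited table calls 186 genes (1.53%) at the same threshold. Libraries with the same replicate number deviated together, and with that number as a block limma called 6 of the 37 (16.2%), of which 2 rose and 4 fell. By role, 1 of 6 tyrosine kinases rose (Fyn) and 1 fell (Syk), 1 of 6 adaptors rose (Lat2), and 1 of 5 lipid and Ras effectors tested (Rasgrp4), 1 of 11 cytoskeleton genes (Abi3) and the transcription factor Ikzf1 fell. None of the 6 receptor and membrane genes or the 2 inhibitory phosphatases passed. The same fit called 914 genes (4.79%), 485 up (2.54%) and 429 down (2.25%). Among genes averaging at least 1000 normalized counts it called 10% of all and 11.1% of the 27 members, so the share among abundant members was near that of abundant genes in general. Among genes averaging at least 10 the shares were 6.81% of all and 16.7% of the 36 members. The median log2 fold change was -0.0039 over the 37 members and 0.0045 over all genes tested.

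Abi3 had the largest fold change of the members called. It encodes a member of the Abl interactor family, the subunits that take part in the WAVE complex, which starts branched actin. Abi3 was at 84.1, 55.8 and 69.9 normalized counts in C28 replicates 1 to 3 and at 212, 177 and 155 in DMSO replicates 1 to 3. Every C28 library lay below every DMSO library, as in 6.50% of all genes tested. The log2 fold change was -1.37 ± 0.15 (SE) with the block, 0.387-fold, with an adjusted p by limma of 0.000548 with the block and 0.0785 without it. DESeq2 gave an adjusted p of 5.45e-06 without the block, and the authors' deposited table gives an adjusted p of 6.4e-06 with a log2 fold change of -0.78, smaller than that of the limma fit. In the RefSeq annotation Abi3 overlaps Gngt2 and Phospho1. Gngt2 was at 628, 471 and 398 normalized counts in C28 libraries and at 706, 462 and 413 in DMSO libraries, and the sources used here do not give the strand setting of the counting, so reads of overlapping genes may not be told apart.

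Values of other WAVE complex genes stood beside that of Abi3 as follows. Abi1 averaged 1444 ± 162 normalized counts in C28 libraries and 1314 ± 121 in DMSO libraries (adjusted p by limma 0.197 with the block), and Abi2 1126 ± 18.3 with C28 and 1169 ± 34.2 with DMSO (adjusted p by limma 0.671 with the block). Nckap1l, the haematopoietic HEM1 subunit, averaged 3172 ± 218 in C28 libraries and 3133 ± 134 in DMSO libraries. Its widely used relative Nckap1 rose with the block, at 1173 ± 45.2 with C28 and 995 ± 42.1 with DMSO (log2 fold change 0.24, adjusted p by limma 0.0359 with the block). The difference between Abi3 and these genes was not itself tested.

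Rasgrp4, a Ras exchange factor of mast cells and other myeloid cells, fell with the block. Rasgrp4 was at 737, 376 and 401 normalized counts in C28 replicates 1 to 3 and at 1164, 575 and 606 in DMSO replicates 1 to 3. The groups overlapped, and replicate 1 was high in each. Within the same-numbered pairs the C28 to DMSO ratios were 0.633, 0.653 and 0.662. The log2 fold change was -0.62 ± 0.07 (SE) with the block, 0.65-fold, with an adjusted p by limma of 0.00052 with the block and 0.752 without it. Fam98c, which overlaps Rasgrp4 in the annotation, was at 159, 148 and 138 in C28 libraries and at 174, 167 and 135 in DMSO libraries.

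Syk, the kinase that docks on phosphorylated receptor tails, also fell with the block. Syk was at 711, 1198 and 1149 normalized counts in C28 replicates 1 to 3 and at 862, 1513 and 1408 in DMSO replicates 1 to 3. Replicate 1 was low in each group, and the groups overlapped. The pair ratios were 0.825, 0.792 and 0.816, and the log2 fold change was -0.30 ± 0.05 (SE) with the block (adjusted p by limma 0.0105 with the block, 0.881 without).

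Ikzf1 encodes Ikaros, a zinc finger transcription factor of blood cells. Ikzf1 was at 5433, 5631 and 5458 normalized counts in C28 replicates 1 to 3 and at 6639.5, 6465 and 6106 in DMSO replicates 1 to 3. Every C28 library was below every DMSO library, and the replicate numbers did not pass the test between them (adjusted p by limma 0.646). With the block it fell by 0.22 on the log2 scale, 0.861-fold (adjusted p by limma 0.0181 with the block, 0.38 without), and the authors' deposited table gives an adjusted p of 0.206. Of its family, Ikzf2 averaged 1271 ± 206 in C28 libraries and 1241 ± 85.2 in DMSO libraries, Ikzf4 297 ± 90.0 with C28 and 375 ± 27 with DMSO, Ikzf5 53.2 ± 10.8 with C28 and 56.1 ± 12.9 with DMSO, and Ikzf3 0.7 ± 0.607 with C28 and 1.59 ± 1.99 with DMSO, and none of them passed in either limma fit.

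Fyn and Lat2 rose with the block. Fyn, a Src family kinase, was at 1278, 879.9 and 838 normalized counts in C28 replicates 1 to 3 and at 955, 723 and 679 in DMSO replicates 1 to 3. The groups overlapped and replicate 1 was the highest of each. The pair ratios were 1.34, 1.22 and 1.23, with a log2 fold change of 0.33 ± 0.06 (SE) and an adjusted p by limma of 0.0106 with the block and 0.762 without it. Lat2 (LAB or NTAL), a LAT-like scaffold of B cells and myeloid cells, was at 2694, 2989.6 and 2603 in C28 libraries and at 2146, 2621 and 2232 in DMSO libraries. The lowest C28 library lay just under the highest DMSO library, and replicate 2 was the highest of each group. Its pair ratios were 1.26, 1.14 and 1.17, with a log2 fold change of 0.25 ± 0.05 (SE) and an adjusted p by limma of 0.0165 with the block and 0.588 without it.

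**Figure D2:**
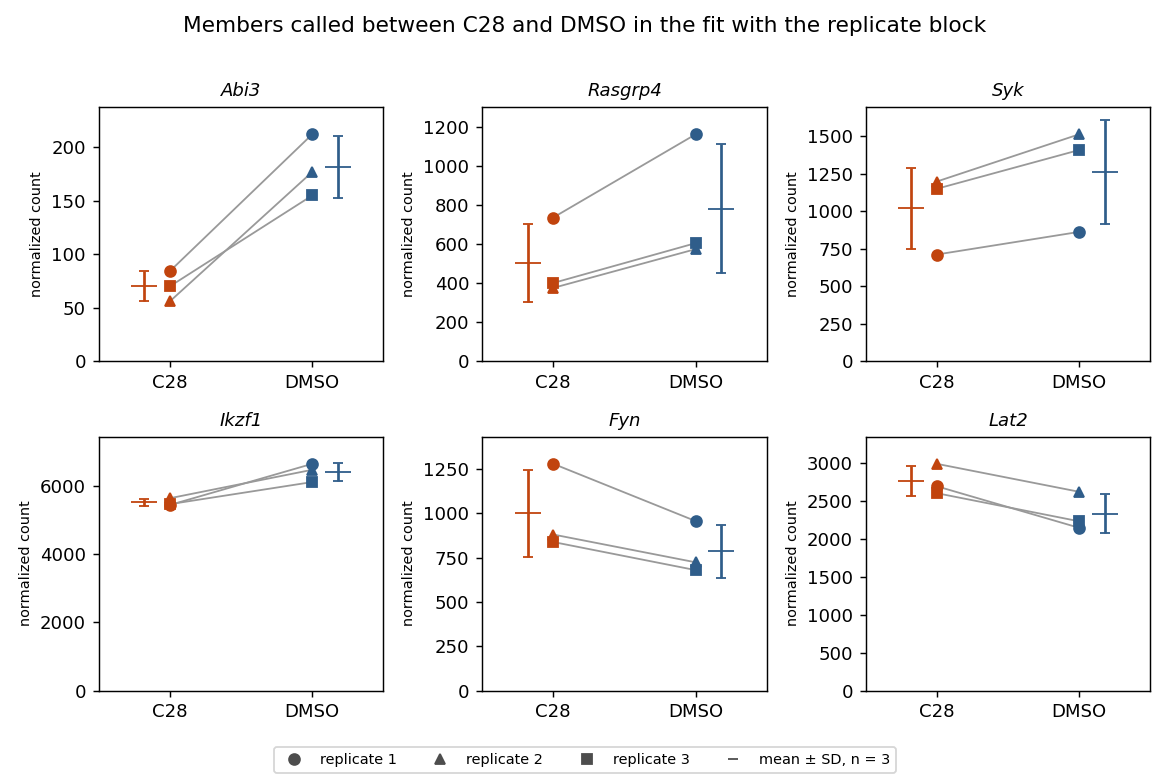
Normalized counts of the 6 members called in the fit with the replicate block, C28 libraries left and DMSO libraries right, with lines joining the same replicate number and bars for the mean ± SD (n = 3). Abi3, Rasgrp4, Syk and Ikzf1 are lower with C28 in every pair and Fyn and Lat2 higher, while for Rasgrp4, Syk and Fyn replicate 1 stands apart from the others.

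In the authors' deposited table the adjusted p was 0.628 for Rasgrp4, 0.999 for Syk, 0.815 for Fyn and 0.578 for Lat2, so that of the 6 members only Abi3 passed there. On the reads with the block, edgeR called 8 members (1354 genes, 7.09%) and DESeq2 called 6 (740 genes, 6.54%). The edgeR calls included Grap2 and Gab2, with edgeR adjusted p of 0.0237 and 0.0375, which limma with the block left at 0.066 and 0.0897. No member had every C28 library above every DMSO library (8.15% of all genes tested), and 4 had them all below (6.50%; 14.6% in either direction). These were Abi3, Ikzf1, Was and Fermt3, and Was and Fermt3 passed in none of these tests. Taken by pairs, C28 was higher in all 3 for 11 of the 37 members (20.6% of all genes tested) and lower in all 3 for 14 (18.8%). Of the 31 members not called with the block, 26 had a 95% interval, with the block, within 0.5 of 0 on the log2 scale, which is 1.41-fold. The 5 members whose interval reached further were Fgr, Vav3, Grap2, Cd84 and Prkcb. In the fit without the block the interval of 21 of these 31 lay within that bound. There Tec, Gab2, Rac2, Cd48 and Laptm5 reached further too. The blocked calls depended on the libraries and on the gene filter. With replicate 1, 2 or 3 left out of both groups and genes filtered anew, limma with the block called 12, 4 and 8 of 36 members. All genes called in those fits were 1703 of 17589, 827 of 17476 and 1006 of 17471. With the tested genes held, a setting chosen after seeing the data, it called 7, 0 and 2 members. All genes called in the held fits were 854 (4.47%), 47 (0.246%) and 191 (1.00%). Without replicate 2 and with the tested genes held, 8 members had an unadjusted p by limma under 0.05 (11.3% of all genes). Without a block and without replicate 1 it called 3 of them when genes were filtered anew (2.02% of all genes) and 0 with the tested genes held.

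**Figure D3:**
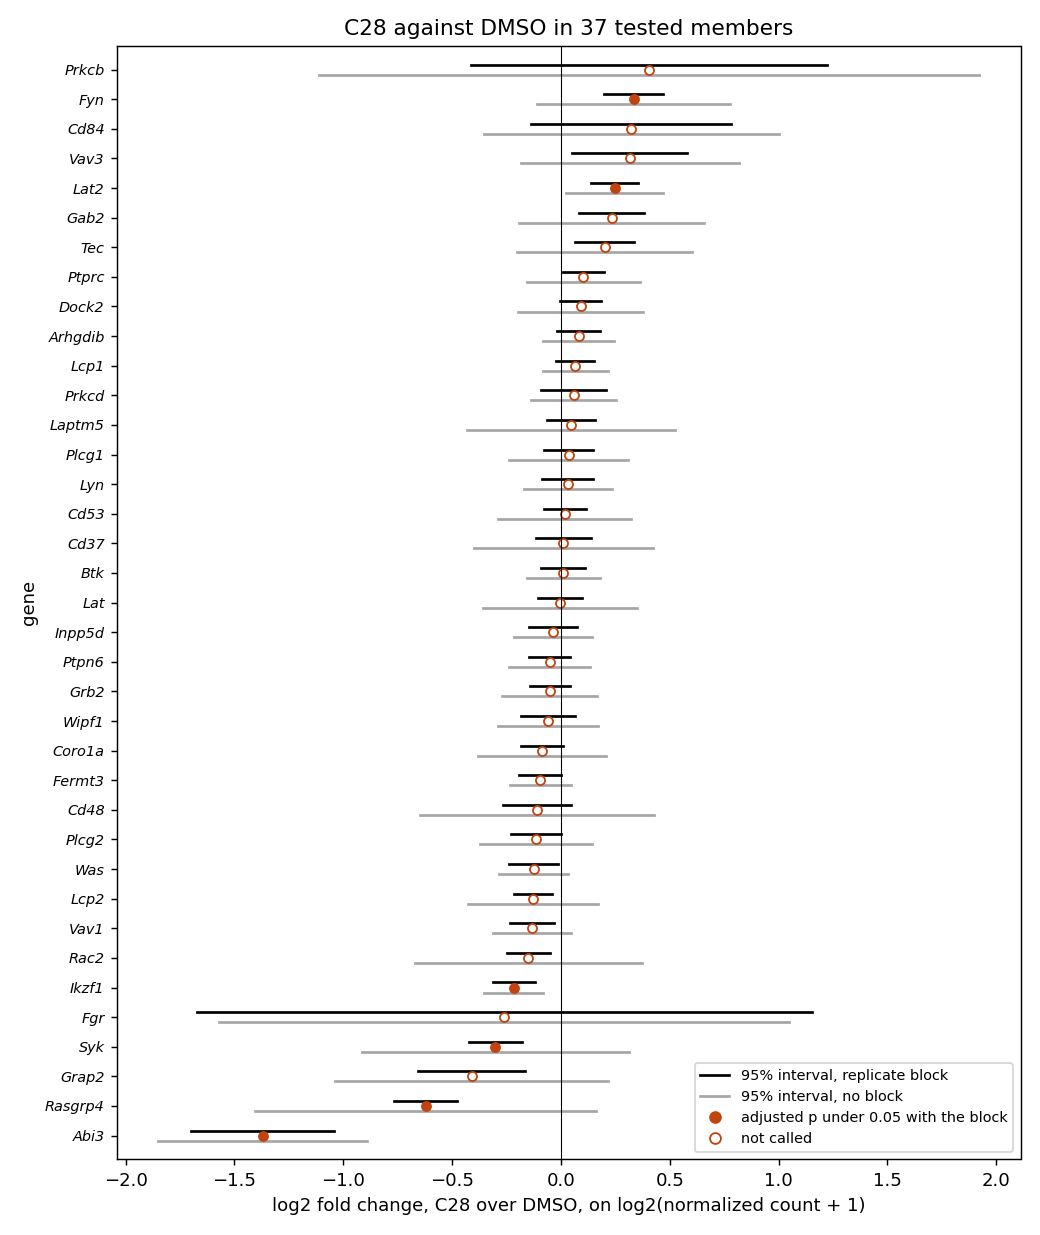
Log2 fold change of C28 over DMSO for the 37 tested members, on log2(normalized count + 1), with 95% intervals with the replicate block (black) and without it (grey), and filled points for members called with the block. Abi3 lies at -1.37 and Rasgrp4 at -0.62, most others lie within 0.5 of 0, and the black intervals are shorter than the grey ones for most genes.

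Summed marker lists give the setting of these calls. The mast cell list took 0.327% to 0.338% of normalized counts in C28 libraries and 0.356% to 0.360% in DMSO libraries, so the groups did not overlap. Most of that sum was Gata2, at 22414 ± 575 normalized counts with C28 and 25072 ± 977 with DMSO, and Kit, at 19928 ± 3115 with C28 and 22046 ± 1757 with DMSO. Over the list, 6 of 10 genes tested had a log2 fold change above 0, with a median of 0.0278, and none passed in either limma fit. On the reads with the block, edgeR called 2 of them, Gata2 and Kit (edgeR adjusted p 0.0187 and 0.0358, 7.09% of all genes). DESeq2 with the block called 1, Gata2 (DESeq2 adjusted p 0.0327, 6.54% of all genes), and left Kit at 0.0667. Of its 15 genes 9 averaged at least 10, while Fcer1a, Tpsb2 and Mrgprb2 were at 0. The fibroblast list took 0.0123% to 0.0291% in C28 libraries and 0.0109% to 0.0283% in DMSO libraries, and the macrophage list 0.00598% to 0.0132% with C28 and 0.006% to 0.0149% with DMSO. The germline list took 0.000751% to 0.0016% in C28 libraries and 0.00088% to 0.00175% in DMSO libraries. The part of the Gata2 and Kit levels in the calls was not tested.

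A wider set of 192 genes of the same pathways, listed with earlier results on these data known, gave 177 genes that could be tested. Without the block 0 of them passed in limma, with 18 at an unadjusted p under 0.05 (7.83% of all genes tested), edgeR called 0 and DESeq2 called 3. With the block 5 rose and 12 fell, 9.60% of the 177, and the median log2 fold change was -0.02. The same fit called 4.79% of all genes tested, 6.81% of those averaging at least 10 and 10% of those averaging at least 1000. Of the 192 genes, 162 averaged at least 10 and 92 at least 1000. By list, 2 adaptors rose and 2 fell of 26, 1 cytoskeleton regulator rose and 3 fell of 44, 1 gene of calcium entry, protein kinase C and NFAT rose and 2 fell of 20, and 1 transcription factor rose and 3 fell of 15. In the lists of proximal kinases and phosphatases (17 tested) and of lipid kinases and phosphatases (12 tested) 1 each fell, and 0 passed among 17 integrin genes and 26 other surface proteins.

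The 2 largest fold changes called in this wider set were falls of adaptor genes. Sla2 (SLAP2), an adaptor that dampens receptor signalling, was at 418, 353 and 375 normalized counts in C28 replicates 1 to 3 and at 887, 623 and 616 in DMSO replicates 1 to 3, without overlap (log2 fold change -0.87, adjusted p by limma 0.000289 with the block and 0.162 without). Sh2b2, an adaptor of tyrosine kinase receptors, averaged 325 ± 58.2 in C28 libraries and 508 ± 98.6 in DMSO libraries (0.641-fold, adjusted p by limma 0.00158 with the block). Pik3ap1 (BCAP), which links receptors to lipid kinases, rose with the block. Pik3ap1 was at 882, 2176 and 2146 in C28 libraries and at 626, 1641 and 1435 in DMSO libraries (1.41-fold, adjusted p by limma 0.000772 with the block and 0.887 without). Further along the pathway Prkcq, a protein kinase C of T cells and mast cells, averaged 399 ± 60.0 in C28 libraries and 534 ± 117 in DMSO libraries. Nfatc2, a calcium-regulated transcription factor, averaged 521 ± 14 with C28 and 689.7 ± 61.9 with DMSO, and both fell with the block (0.755-fold and 0.757-fold, adjusted p by limma 0.0134 and 0.00845). Rhoh, a GTPase of blood cells that lacks GTP hydrolysis, fell 0.787-fold, at 1347 ± 69.9 in C28 libraries and 1711 ± 66.6 in DMSO libraries (adjusted p by limma 0.009 with the block).

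Of the 15 genes tested in the list of Ikaros relatives and partner transcription factors, 1 rose and 3 fell with the block. The log2 fold change was below 0 in 12 of the 15, and in 9354 of all 19087 genes tested. Its median was -0.19 over the list and 0.0045 over all genes tested. Over the 177 genes of the wider set it was below 0 in 95 and above 0 in 82. It was below 0 in 12 of 17 proximal kinases and phosphatases and in 10 of 17 integrin genes. In the list of calcium entry, protein kinase C and NFAT it was above 0 in 12 of 20. Gfi1b, a repressor of erythroid and megakaryocyte cells, rose to 469 ± 23.6 normalized counts in C28 libraries, against 309.6 ± 38.2 in DMSO libraries (1.52-fold, adjusted p by limma 0.0035 with the block). Its relative Gfi1 fell to 512 ± 116 in C28 libraries, against 694 ± 65.7 in DMSO libraries (0.727-fold, adjusted p by limma 0.0108). Runx3 fell to 2670.3 ± 397 in C28 libraries, against 3480.3 ± 377 in DMSO libraries (0.765-fold, adjusted p by limma 0.00123), and Stat5a, a factor downstream of cytokine receptors, to 2418 ± 175 in C28 libraries, against 3041 ± 177 in DMSO libraries (0.795-fold, adjusted p by limma 0.00233). The other genes called with the block were Vav2, Rhog, Dgkz and Csk, which fell, and Shc1, Nfatc1 and Nckap1, which rose.

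The replicate number was then tested across both groups. In limma's F test over the 3 replicate numbers, with the treatment in the fit, 21 of the 37 members passed an adjusted p of 0.05 (56.8%), against 16.2% of all genes tested and 42.4% of the 177 genes of the wider set. Among genes averaging at least 1000 normalized counts the shares were 55.6% of the 27 members and 30.0% of all, and at a mean of at least 10 they were 58.3% and 22.4%. No label says what a shared number stands for. Rac2, Rasgrp4 and Syk had the lowest adjusted p in this test, at 2.67e-05, 2.47e-05 and 4.05e-05 by limma.

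In 19 members replicate 1 was the highest library of both groups (23.2% of all genes tested) and in 11 the lowest of both (23.9%). The mean of replicate 1 over that of replicates 2 and 3, a split chosen after the values were seen, was 1.94 for Rasgrp4, 1.55 for Rac2, 1.49 for Laptm5, 1.43 for Fyn and 1.40 for Gab2. It was 0.597 for Syk, 0.634 for Grap2, 0.657 for Cd48, 0.782 for Lat and 0.788 for Lcp2. Within a role the members stood on opposite sides, with the kinases Fyn and Tec high and Syk low in replicate 1, and the adaptors Gab2 and Grb2 high and Lcp2, Lat and Grap2 low. Was, Ikzf1, Fermt3, Prkcd and Lcp1 had ratios of 0.944, 1.02, 1.02, 1.06 and 1.08 and did not pass the F test. With replicate 1 left out of both groups, 4 of 36 members passed, against 3.11% of all genes tested.

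Genes of the marker lists also differed by replicate number. Of the 10 mast cell genes tested, 7 passed the replicate F test (16.2% of all genes tested). In replicate 1 of both groups 3 were highest, among them Kit, and 4 were lowest, among them Hdc and Il1rl1. Hdc was at 2.08, 113 and 117 normalized counts in C28 replicates 1 to 3 and at 1.87, 112 and 97.6 in DMSO replicates 1 to 3. Il1rl1 was at 1849, 4754 and 5622 in C28 libraries and at 1744, 4632 and 5467 in DMSO libraries. The summed macrophage list took 0.00598% and 0.006% of normalized counts in replicate 1 of C28 and of DMSO, against 0.0115% to 0.0149% in the other libraries. Most of it was Adgre1, at a mean of 1348 normalized counts over the 6 libraries, and Cd68, at 409, while C1qa, C1qb and C1qc were at 0. The neutrophil list took 0.00147% and 0.00137% in replicate 1 of C28 and of DMSO, against 0.00648% to 0.00831% in the others. That was nearly all 1 gene, the protease gene Ctsg, at 252, 1309 and 1475 in C28 replicates 1 to 3 and 237, 1225 and 1144 in DMSO replicates 1 to 3, with Elane and S100a9 at 0. The megakaryocyte list took 0.0227% in the C28 and 0.0216% in the DMSO replicate 1, against 0.0167% to 0.0177%, and was nearly all Itga2b, at a mean of 3254, with Tubb1 at 0. The fibroblast list took 0.0123% in the C28 and 0.0109% in the DMSO replicate 1, against 0.0174% to 0.0291% in the others. Of its 10 genes tested, 8 passed the replicate F test and 8 were lowest in replicate 1 of both groups, and the means over the 6 libraries were 1353 for Dcn and 1594 for Fn1. The part of these lists in the replicate difference was not tested.

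**Figure D4:**
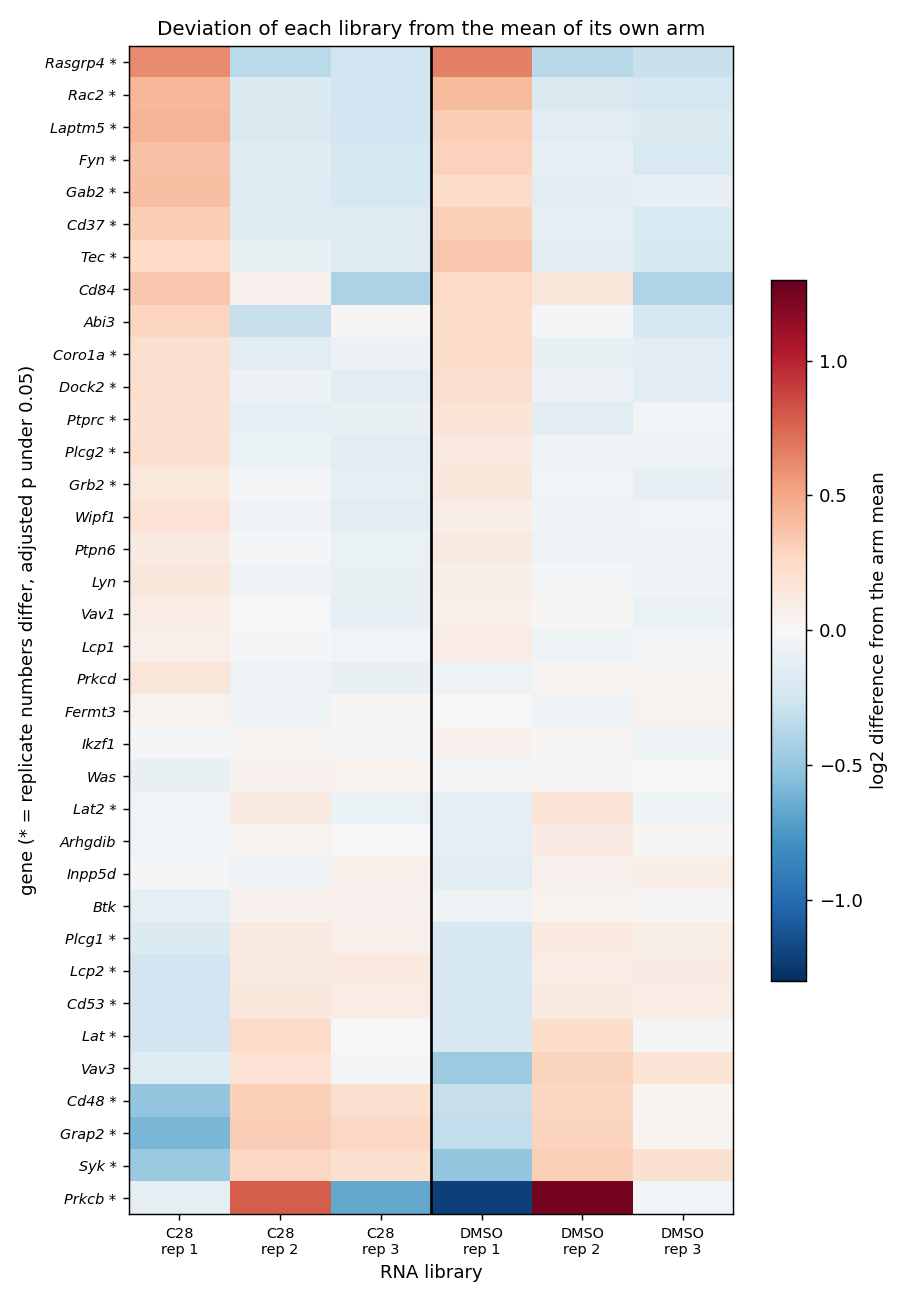
Log2 difference of each library from the mean of its own group for the 36 tested members averaging at least 10 normalized counts, C28 libraries left of DMSO libraries, ordered by replicate 1 (red above, blue below the group mean), with an asterisk where the replicate numbers differ. The columns of replicate 1 run from red for Rasgrp4 (0.62 and 0.65) to blue for Syk (-0.48 and -0.51) in both groups, and the low-count gene Prkcb has the widest spread.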

How the data were processed

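RNA was measured in 3 C28 and 3 DMSO libraries, grouped and numbered by the sample titles. The deposited table holds a signal per Ensembl gene, gene read counts divided by 1 size factor per library by the authors. Read values, after dividing by what 1 read is worth, were whole to within 0.01 in 100% of cases, which gave 16930212 to 17428321 reads per C28 library and 18613916 to 19197376 per DMSO library. The authors' deposited table also carries a log2 fold change and an adjusted p-value for the treatment. Per the submitters' processing notes, mm9, Bowtie2 and Cufflinks 2.2.1 were used, with no role stated, and the sources used here give neither the counting tool nor its strand setting. Names missing in the table were taken from a table of Ensembl identifiers, and of rows sharing a name the one with the largest mean was used.

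The 19087 genes that reached a value of 1 in 3 or more libraries entered limma 3.58.1 (R 4.3.3) as log2(value + 1), with an intensity trend and Benjamini-Hochberg adjustment over all of them. Fold changes on this scale understate changes of low genes. edgeR 4.0.16 and DESeq2 1.42.0 were run on the recovered reads. The limma, edgeR and DESeq2 fits, with and without the block, were tested on simulated data, and their altered settings were not. In the simulation no replicate number was made to stand apart, unlike in these data. Over 10578 genes averaging at least 50, deviations from the group means correlated at 0.844, 0.683 and 0.705 between same-numbered libraries and at 0.543 or less between others, so the number was also fitted as a block. Replicate 1 stood apart, which raises these values. Members and lists were chosen with earlier results of these data known. Members called in either fit, the 6 highest and those under 10 are given by library. In the wider set, the 10 largest changes among called genes have values. Peak lists were not used.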

Additional observations from a re-analysis of the deposited data

How the results depend on the processing

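Without a block, 26 genes and 0 members were called, and pseudocounts of 0.5 and 5, other filters, TMM and quantile scaling and edgeR gave 20 to 30 genes and 0 members, while DESeq2 gave 182 and 1. With the replicate block there were 914 genes and 6 members in limma, 1354 and 8 in edgeR and 740 and 6 in DESeq2. The block with TMM gave 876 and 6, with a pseudocount of 5 it gave 909 and 6, and with quantile normalization 258 and 2, settings chosen after seeing the data. Leaving out 1 library without the block gave 5 to 30 genes, and 0 to 23 with the gene set of all 6 libraries, also chosen after seeing the data, and 0 members each time. The 0 genes came without C28 replicate 2 (limma, 1207 at an unadjusted p under 0.05), and 9, 8, 5 and 8 came without DMSO replicates 1, 2 and 3 and C28 replicate 3. With the block and without replicate 1, 2 or 3 in both groups, 1703, 827 and 1006 genes and 12, 4 and 8 members were called, but 854, 47 and 191 genes and 7, 0 and 2 members with the gene set held. Replicate 1 left out without a block gave 356 genes and 3 members, or 90 and 0 with the gene set held. The counts by replicate number, 3100 genes and 21 members, became 1716 and 18 under quantile normalization and 547 and 4 without replicate 1. Over 34 alternatives no called member changed direction, but sizes moved with 1 library left out and no block. The log2 fold change was -0.06 without C28 replicate 1 and -0.56 without DMSO replicate 1 for Syk, -0.93 and -0.30 for Rasgrp4, and 0.14 and 0.48 for Fyn. Ranges were -1.51 to -1.22 for Abi3, -0.25 to -0.18 for Ikzf1 and 0.19 to 0.33 for Lat2. Abi3 was called in 11 of 12 settings with the block and 2 of 22 without, Rasgrp4 in 11 and 1, Syk in 8 and 1, Fyn and Lat2 in 9 and 0, and Ikzf1 in 8 and 0. The cause of these differences was not tested. Values per transcript length and H3K27ac peaks at the members were not run. Depth limits Fgr, Rasgrp1, Prkcb and Cd84.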
